A study of Mus musculus with 2 samples.

Results

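The genes described here are the pair of MYC family genes Myc and Mycn and 31 genes of nucleolar ribosome assembly, chosen by symbol, not by their values. All 33 symbols were found in both libraries, among 33456 genes, and each matched 1 gene row. They were read in 2 droplet 5′ single-cell RNA libraries of mouse yolk sac, 1 called Baf155 CKO and 1 wild type (WT), both of the B6 strain. Each library pooled yolk sacs of stages E9.5 and E10.5 in like number, digested for 30 min in 0.25% collagenase, and held live cells sorted as negative for the erythroid surface marker Ter119. Baf155 is the product of Smarcc1, a core subunit of the BAF chromatin remodelling complex. The labels name nuclei as the material, although the protocol sorts live cells. The sources used here do not give a cell's stage, how many embryos were pooled, which Cre was used or which exon it deletes.

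MYC proteins pair with MAX, bind the E-box hexamer and are known to raise the genes that make ribosomes. In the nucleolus RNA polymerase I transcribes the ribosomal RNA precursor, snoRNA-guided enzymes modify it, the small subunit processome folds and cuts it, and assembly factors such as the PES1, BOP1 and WDR12 complex build the large subunit. Fast-dividing blood progenitors are known for high levels of this machinery, and Myc is known to be needed for blood formation in the mouse embryo.

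The Baf155 CKO library had 865 barcodes with 6328 to 96471 UMIs each, and the WT library 815 barcodes with 6054 to 114332, and 841 CKO and 784 WT cells were kept. The libraries shared 1 barcode. Smarcc1 (ENSMUSG00000032481, chromosome 9, 110117708 to 110240178, plus strand, GRCm38), the targeted gene, stood at 24.0 CPM (UMIs of the gene per 1000000 UMIs) in CKO cells and at 94.9 CPM in WT cells. Its RNA may still be counted from a deleted allele. Smarcc1 UMIs were absent from 563 of the 841 CKO cells and from 131 of the 784 WT cells, so some CKO cells kept the RNA. With 1 library per genotype no test was possible, and a difference between the libraries cannot be told apart from one between embryos, sorts or preparations. All intervals are 95% intervals for counting error only, and the UMIs of a cell move together.

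Cells were gated by marker genes, and members were then summed within each gate. The progenitor list held Kit, Cd34, Myb and Runx1 and also myeloid genes such as Mpo and Prtn3, and any 4 sufficed. CKO and WT gates held 70 and 157 progenitor-like cells and 53 and 51 endothelium-like cells. Cells with both progenitor and endothelial markers (called progenitor-endothelial) numbered 64 and 25 in these gates. The gates held 248 and 154 erythroid-like, 283 and 246 stroma-like, 70 and 10 megakaryocyte-like, 19 and 48 macrophage-like, and 4 and 32 visceral endoderm-like cells, with 30 and 61 left ungated. Erythroid-like cells were thus present in both libraries after the Ter119-negative sort. Gate markers are found in their gates by construction, so their levels describe the gates and do not test the names. In progenitor-like cells Kit had 38.3 CPM in CKO and 19.1 CPM in WT, and Runx1 149 and 110 CPM. Prtn3 had 384 CPM in CKO and 521 CPM in WT, Mpo 328 and 258 CPM, and Myb 45.2 and 49.5 CPM. The gate thus held much myeloid RNA, and the part of its cell mix in the ratios was not tested. The endothelial cadherin gene Cdh5 had 227 CPM in CKO and 406 CPM in WT endothelium-like cells. Ratios were formed in the 5 types with at least 20 cells in each library. A ratio is CPM in CKO cells over CPM in WT cells of the same type, and a gene counted as lower or higher when it was past 1.5-fold with at least 20 UMIs over both libraries. Free erythroid RNA was higher in the CKO library: the embryonic globin gene Hbb-y stood at 1114 CPM in CKO and 163 CPM in WT stroma-like cells, which do not make it.

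Of the 33 genes, 27 had a promoter window in RefSeq (GRCm38.p6, 250 bases before to 50 after the start), and 5 of these 27 windows (18.5%) held the E-box CACGTG, against 9.05% of 17510 genes of the files. Among genes with promoter G+C between the quartiles of the members, 10.8% held it. The members with no entry were Myc, Npm1, Fbl, Rrp12, Bop1 and Rrs1. CACGTG is its own reverse complement, so 1 search covers both strands. In the list of 25 other well-known MYC target genes, 12 of 22 matched windows (54.5%) held it. The 5 sites are shown because they are the sequence by which MYC proteins are known to bind, read along each gene's strand with the hexamer in capitals.
Mybbp1a (chr11:72441347-72441376, plus strand, hexamer starting 40 bases after the start): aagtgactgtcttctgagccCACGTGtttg
Utp20 (chr10:88826765-88826794, minus strand, 37 bases after the start): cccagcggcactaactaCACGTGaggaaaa
Wdr43 (chr17:71616220-71616249, plus strand, 17 bases after the start): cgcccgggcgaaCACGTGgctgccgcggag
Pes1 (chr11:3963965-3963994, plus strand, 2 bases after the start): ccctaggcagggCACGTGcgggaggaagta
Nop2 (chr6:125131811-125131840, plus strand, 60 bases before the start): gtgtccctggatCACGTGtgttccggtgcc
A match is only a run of letters in this window. The ratios of these 5 genes in progenitor-like cells had a median of 0.898 and ran between 0.788 and 1.13, beside a median of 0.816 for the 21 other nucleolar genes with a window. In stroma-like cells the medians were 0.947 and 0.810, and in progenitor-endothelial cells 0.734 and 0.751.

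Myc RNA was lower and Mycn RNA higher in CKO blood progenitors, though Mycn not among Y-positive ones (log2 ratio -0.24). Myc (ENSMUSG00000022346, chromosome 15, 61985391 to 61990374, plus strand) encodes MYC, and Mycn (ENSMUSG00000037169, chromosome 12, 12936093 to 12941914, minus strand) its paralogue N-MYC. In progenitor-like cells the level of Myc was 19.3 CPM in CKO (14.6 to 25.1, 56 UMIs) and 60.7 CPM in WT (54.8 to 67.1, 388 UMIs), a ratio of 0.318 (0.236 to 0.422). Mycn ran the other way, at 60.4 CPM in CKO (51.8 to 70.1) and 23.3 CPM in WT progenitor-like cells (19.7 to 27.4), a ratio of 2.59 (2.07 to 3.25). Among 9743 genes measured in this cell type, 10.8% were lower and 15.4% higher by the same rule.

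Cells that also carried endothelial markers had the highest Mycn level of every gated type in both libraries. Mycn stood at 167 CPM in CKO progenitor-endothelial cells (151 to 184) and at 93.1 CPM in WT ones (76.0 to 113), a ratio of 1.79 (1.44 to 2.25). Myc stood at 23.5 CPM in CKO and 38.0 CPM in WT progenitor-endothelial cells, a ratio of 0.620 (0.410 to 0.946). This Myc difference was not seen among the cells of this type with no UMI of the erythroid regulators Klf1 and Gata1, where the log2 ratio was 0.035. It was short of 1.5-fold, with an interval spanning 1, for CKO cells with no Smarcc1 UMI (log2 ratio -0.34) and with a looser gate (-0.51). In endothelium-like cells Mycn had 70.0 CPM in CKO and 24.1 CPM in WT, a ratio of 2.90 (1.76 to 5.03), on 98 and 19 UMIs. Myc had 19.997 CPM in CKO and 30.4 CPM in WT endothelium-like cells, a ratio of 0.657 whose interval spans 1 (0.367 to 1.18).

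Erythroid-like and stroma-like cells held near-equal Myc in both libraries. Myc had 23.8 CPM in CKO and 21.9 CPM in WT erythroid-like cells (1.09, 0.866 to 1.37), and 14.1 CPM in CKO and 14.2 CPM in WT stroma-like cells (0.990, 0.731 to 1.34). Mycn had 25.5 CPM in CKO and 27.2 CPM in WT stroma-like cells (0.935, 0.750 to 1.17). Mycn was near the floor of detection in erythroid-like cells, at 2.50 CPM in CKO and 1.28 CPM in WT, so its ratio of 1.96 (0.813 to 5.40) rests on 23 and 7 UMIs.

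Macrophage-like cells showed a wide gap for Myc, with few CKO cells. Myc had 4.67 CPM in the 19 CKO cells (1.52 to 10.9, 5 UMIs) and 74.3 CPM in the 48 WT cells (61.6 to 88.9, 120 UMIs). The CKO cells carried less macrophage marker RNA: C1qa, a complement gene of yolk sac macrophages, had 51.4 CPM in CKO and 362 CPM in WT cells, and the summed macrophage list 1350 CPM and 4595 CPM. Their Smarcc1 stood at 75.7 CPM in CKO and 82.4 CPM in WT cells, and 17 of the 19 were Y-positive. Mycn was near 0 in both, at 1.87 CPM in CKO and 1.24 CPM in WT macrophage-like cells. Megakaryocyte-like cells had 13.2 CPM of Myc in CKO and 18.1 CPM in the 10 WT cells, and 86.2 CPM of Mycn in CKO (74.0 to 100) and 46.3 CPM in WT (29.3 to 69.4). The cells of this gate differed in their own markers, with the megakaryocyte list at 9864 CPM in CKO and 1672 CPM in WT and the platelet factor gene Pf4 at 5520 CPM and 750.4 CPM. The 4 CKO visceral endoderm-like cells held 1 Myc UMI and 6 Mycn UMIs, and the 32 WT cells 4 and 7. Ungated cells had 42.1 CPM of Myc in CKO and 88.5 CPM in WT, and 62.5 CPM and 44.6 CPM of Mycn.

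**Figure D1:**
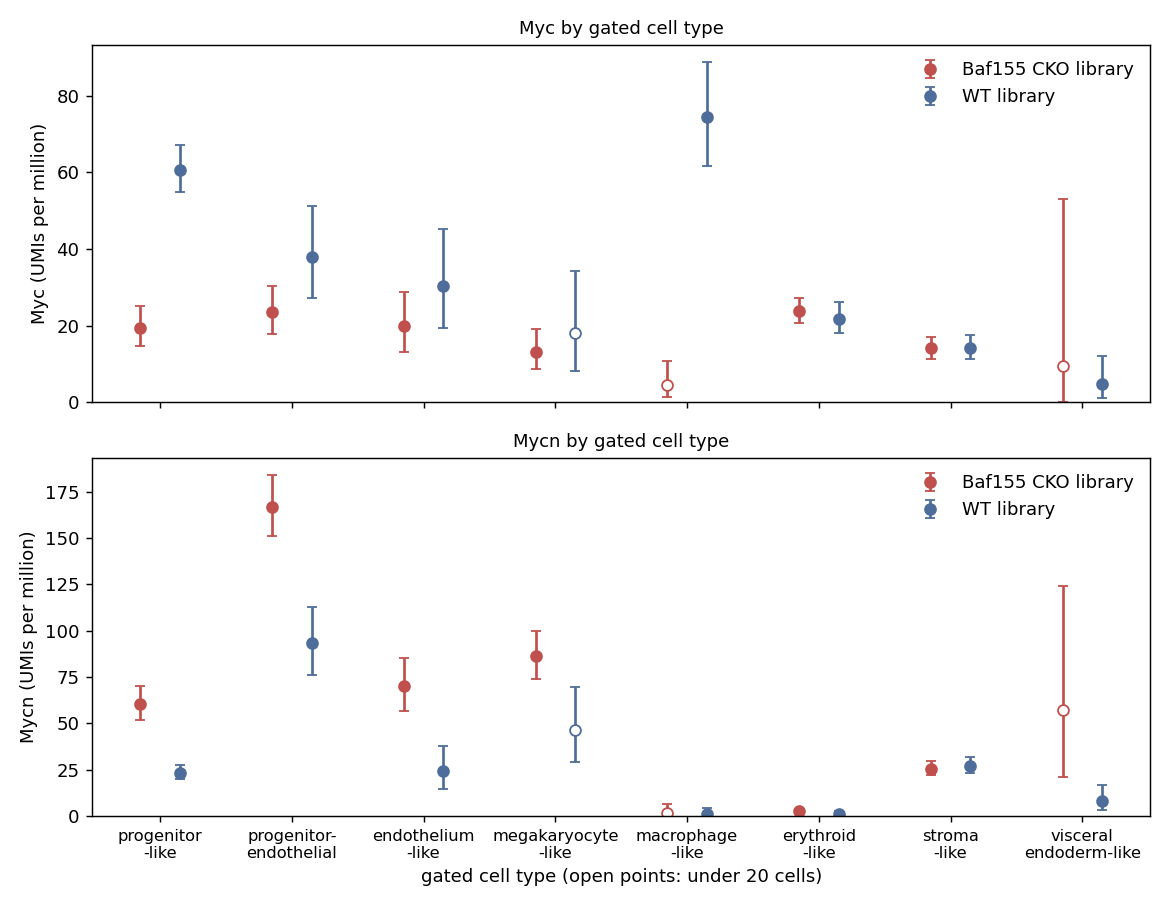
Level of Myc (top) and Mycn (bottom) in CPM for each gated cell type, with the Baf155 CKO library left of WT; bars are 95% Poisson intervals for counting error and open points have under 20 cells. Myc was lower in CKO progenitor-like cells (19.3 against 60.7 CPM), and Mycn was highest in progenitor-endothelial cells of both libraries (167 and 93.1 CPM).

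The order of cell types by Myc level differed between the libraries, while their order by Mycn was led by the same type. In CKO cells the 6 types with at least 20 cells lay between 13.2 CPM (megakaryocyte-like) and 23.8 CPM (erythroid-like), a 1.80-fold range, and the top pair, erythroid-like and progenitor-endothelial at 23.5 CPM, had overlapping intervals. In WT cells the 7 such types ran from 4.72 CPM (visceral endoderm-like) to 74.3 CPM (macrophage-like), a 15.8-fold range, with overlapping intervals for macrophage-like and progenitor-like cells at the top. The sets of types differ: macrophage-like and visceral endoderm-like cells are only in the WT set, and megakaryocyte-like cells only in the CKO set. The ranges of the libraries are therefore not like for like, and the few CKO macrophage-like cells had Myc below the CKO range. Mycn had a 66.8-fold range in CKO and a 75.1-fold range in WT. Among the types ranked, its lowest was erythroid-like in CKO (2.50 CPM) and macrophage-like in WT (1.24 CPM). CKO macrophage-like cells, under 20 in number and so not ranked, had a lower Mycn level than CKO erythroid-like cells. Across these unlike sets of types the Myc level and the summed nucleolar genes had a Spearman correlation of 0.086 in CKO (6 types) and 0.679 in WT (7 types). The types of a library share its free RNA and differ in depth per cell, so these are descriptions.

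The share of cells with a UMI was compared after every cell was thinned to 10000 UMIs. Myc was then seen in 9 of 70 CKO progenitor-like cells (12.9%, 6.05 to 23.0) and 61 of 152 WT ones (40.1%, 32.3 to 48.4), with 5 shallower WT cells left out. Unthinned shares were 32.9% and 63.1%, at median depths of 41509 and 41844 UMIs. In macrophage-like cells Myc was seen in 0 of 19 CKO cells, which allows up to 17.6% of cells with a UMI at the thinned depth, and in 18 of 45 WT cells (40.0%) after thinning. The count of 0 is no limit on expression, since 21.1% of the CKO cells and 72.9% of the WT cells held a Myc UMI unthinned. Mycn was seen in 20 of 70 CKO progenitor-like cells (28.6%, 18.4 to 40.6) and 29 of 152 WT ones (19.1%, 13.2 to 26.2), with overlapping intervals. Mycn was seen in 41 of 64 CKO (64.1%) and 12 of 25 WT (48.0%) progenitor-endothelial cells, and the intervals of this pair overlap. In endothelium-like cells it was seen in 21 of 51 CKO (41.2%) and 6 of 34 WT cells (17.6%), with 2 and 17 shallower cells left out. Erythroid-like cells had a Mycn UMI in 7 of 232 CKO cells (3.02%) and 2 of 141 WT cells (1.42%) after thinning, at median depths of 35265 and 33015.5 UMIs. Globin took 27.6% and 31.6% of their UMIs, and whether these few Mycn UMIs were free RNA was not tested. Both genes were found together in 6 of 70 CKO and 7 of 152 WT progenitor-like cells.

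Within the CKO progenitor-like gate, Mycn went with the loss of Smarcc1 RNA and Myc did not. The 28 CKO cells with no Smarcc1 UMI had 108 CPM of Mycn (88.1 to 131), and the 42 with one had 37.4 CPM (29.3 to 47.0). Myc had 19.1 CPM in the 28 cells without (11.3 to 30.1) and 19.5 CPM in the 42 cells with a Smarcc1 UMI (13.8 to 26.7), so both sets lay below the WT level of 60.7 CPM. Sexes also differed: Xist-positive (female) CKO cells had 14.7 CPM of Smarcc1 and 96.8 CPM of Mycn, while Y-positive CKO cells had 68.6 CPM of Smarcc1 and 25.5 CPM of Mycn. WT progenitor-like cells had 18.7 CPM of Mycn if Xist-positive and 30.2 CPM if Y-positive. The Mycn log2 ratio was thus 2.37 among Xist-positive cells and -0.24 among Y-positive ones. Myc was lower in CKO in both sexes, at 27.4 CPM in CKO and 61.8 CPM in WT Xist-positive cells, and at 12.7 CPM in CKO and 49.7 CPM in WT Y-positive cells. Depth differed between the sets, with medians of 31505 UMIs in cells without and 45446 in cells with a Smarcc1 UMI, and a shallow cell is more likely to show none. Sex, Smarcc1 RNA and embryo cannot be told apart here. In CKO progenitor-endothelial cells Mycn was at 171 CPM in the 42 cells with no Smarcc1 UMI and at 160 CPM in the 22 with one, with overlapping intervals.

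**Figure D2:**
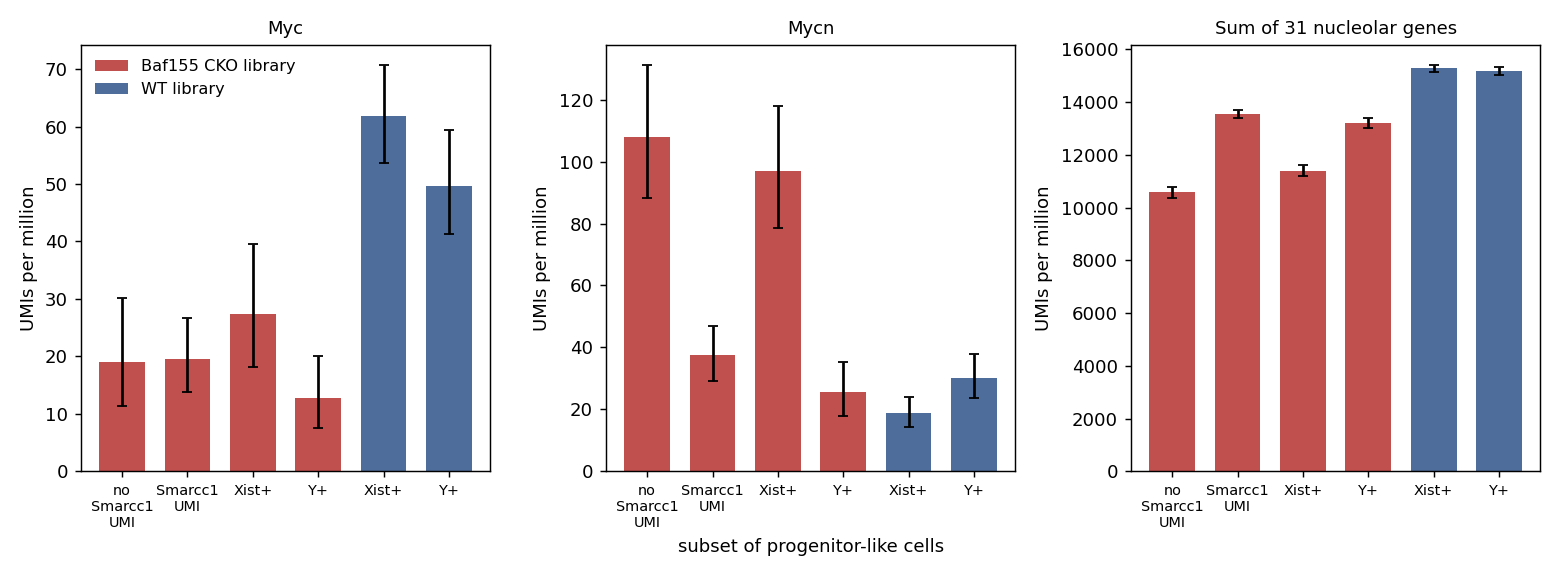
Myc, Mycn and the summed 31 nucleolar genes (CPM, bars with 95% Poisson intervals for counting error) in progenitor-like cells, split by a Smarcc1 UMI in the Baf155 CKO library and by Xist or Y-linked UMIs in each library. Mycn was at 108 CPM in CKO cells with no Smarcc1 UMI and at 25.5 CPM in Y-positive CKO cells, while Myc was below both WT sets in every CKO set.

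Other RNAs also differed between the libraries, and not always in the direction of Myc. A list of 19 immediate early and heat shock genes, which respond to dissociation and was added with the data in view, summed to 1527 CPM in CKO and 3693 CPM in WT progenitor-like cells, and to 1256 CPM in CKO and 3223 CPM in WT macrophage-like cells. Within it 9 of 19 genes were lower in CKO progenitor-like cells, led by the chaperone gene Hspa1a at 137 CPM in CKO and 1695 CPM in WT, and the early gene Jun had 178 CPM in CKO and 623 CPM in WT and Klf2 32.5 CPM and 117 CPM. Other early genes were closer, with Fos at 33.5 CPM in CKO and 48.5 CPM in WT, Ier2 at 229 CPM and 248 CPM, and Egr1 at 25.5 CPM and 24.3 CPM. The erythroid regulator Klf1 had 5.52 CPM in CKO and 35.2 CPM in WT progenitor-like cells, and Gata1 10.0 CPM and 34.8 CPM, while the summed erythroid list, which holds the globins, had 4087 CPM in CKO and 897 CPM in WT. Among progenitor-like cells with no UMI of either, the Myc log2 ratio was -1.90, beside -1.65 in all of them. The 19-gene sum was also lower in CKO progenitor-endothelial cells (2922 CPM in CKO and 4336 CPM in WT). It was higher in CKO endothelium-like cells (3467 CPM and 2874 CPM) and stroma-like cells (3899 CPM and 3244 CPM). The part of the stress genes in the Myc difference was not tested. Of the MYC partners, Max, through which MYC binds DNA, had 76.6 CPM in CKO and 99.1 CPM in WT progenitor-like cells (0.774, 0.661 to 0.903). Mlx, the partner of the related factor MONDOA, had 21.1 CPM and 37.4 CPM (0.563), and Mga, a MAX-binding repressor, 34.2 CPM and 23.5 CPM (1.46). Of 9 measured partner genes 5 were past 1.5-fold higher and 2 lower, beside 15.4% and 10.8% of all measured genes. Their median log2 ratio was 0.60, but the median was -0.37 for the partner genes with at least 100 UMIs. Max had 65.4 CPM in CKO and 99.4 CPM in WT progenitor-endothelial cells (0.657).

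The nucleolar genes were lower in CKO progenitor-like cells as a group, by much less than Myc. Of the 31, 27 had a ratio below 1 and 4 above, with a median log2 ratio of -0.26, where all 9743 measured genes had a median of 0.01 and 49.2% were below 1. Only 2 of the 31, Rrs1 and Rrp1b, were past 1.5-fold lower and none higher, beside 10.8% and 15.4% of all measured genes. The summed level of the 31 was 12582 CPM in CKO and 15277 CPM in WT cells, a ratio of 0.824 (0.814 to 0.834). Per cell, the median sum was 12362 CPM in CKO (quartiles 9169 and 15046) and 15146 CPM in WT (13180 and 16775), so the upper part of the CKO cells overlapped WT while the lower quartile lay well below it. The CKO cells with no Smarcc1 UMI had a sum of 10579 CPM and those with a Smarcc1 UMI 13550 CPM. Against all WT cells, those with no Smarcc1 UMI gave 13 members past 1.5-fold lower and a median log2 ratio of -0.51, where 18.3% of all 9294 genes measured were lower.

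Among the abundant nucleolar proteins, the difference was larger for nucleolin than for nucleophosmin. Ncl (ENSMUSG00000026234, chromosome 1, 86344719 to 86359400, minus strand), for nucleolin, which binds the ribosomal RNA precursor, had 1915 CPM in CKO and 2798 CPM in WT progenitor-like cells, a ratio of 0.684 (0.664 to 0.705). Npm1, for the histone chaperone and assembly factor nucleophosmin, had 5201 CPM and 5882 CPM, a ratio of 0.884 (0.868 to 0.901). Npm1 has processed pseudogenes that can take some of its reads. Nolc1, a chaperone of snoRNPs, had a ratio of 0.750, Gnl3, for nucleostemin, 0.853, and Mybbp1a, a nucleolar regulator of transcription, 0.942.

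The snoRNP genes were all below 1 in these cells. The box C/D particle, which methylates ribosomal RNA, had ratios of 0.800 for its methyltransferase Fbl, 0.806 for Nop56 and 0.964 for Nop58. The box H/ACA particle, which makes pseudouridine, had 0.714 (0.643 to 0.793) for its enzyme Dkc1, 0.835 for Nhp2, 0.718 for Gar1 and 0.816 for Nop10. Levels of Dkc1 were 163 CPM in CKO and 228 CPM in WT cells.

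The assembly factors held both ends of the range. Rrp1b (ENSMUSG00000058392, chromosome 17, 32036100 to 32062865, plus strand), a nucleolar protein of large subunit processing, had 37.6 CPM in CKO and 92.0 CPM in WT progenitor-like cells, a ratio of 0.409 (0.330 to 0.502). Rrs1, which in yeast helps to bring the 5S particle into the large subunit, had 109 CPM and 169 CPM (0.645, 0.567 to 0.732), and Ebna1bp2, another large subunit factor, 209 CPM and 293 CPM (0.713). At the other end stood Rrp12, known in yeast as a factor of subunit maturation and export, at 33.5 CPM in CKO and 28.0 CPM in WT (1.20, 0.924 to 1.54). Polr1a, the largest subunit of RNA polymerase I, had 1.18 (0.886 to 1.55), the helicase gene Ddx21 1.14 (1.02 to 1.28) and Pes1 1.13 (0.988 to 1.28), and 3 of these 4 intervals span 1. The other 10 assembly factors lay between 0.788 (Wdr43) and 0.993 (Nop14, of the small subunit), and the polymerase subunit genes Polr1b and Polr1c had 0.791 and 0.783.

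In progenitor-endothelial cells the nucleolar genes were lower by more. Ratios were below 1 for 29 of 31, the median log2 ratio was -0.41 against -0.03 for 8219 measured genes, and 11 of 31 were past 1.5-fold lower and none higher. With Myc, 12 of all 33 were lower, and Mycn alone was higher, beside 15.1% and 17.1% of all measured genes. The lower count was 6 among CKO cells with no Smarcc1 UMI, where 15.5% of genes were lower, and also 6 with globin, mitochondrial and ribosomal protein UMIs left out of the totals, where 11.8% were. The sum had 11073 CPM in CKO and 15143 CPM in WT cells, a ratio of 0.731 (0.717 to 0.745). Per cell the quartiles were 8225 and 12087 CPM in CKO and 13681 and 16024 CPM in WT, and they did not overlap. The lowest ratios were those of Rrp1b (29.2 CPM in CKO and 65.1 CPM in WT, 0.449), Ebna1bp2 (158 CPM and 309 CPM, 0.512), Ncl (1762 CPM and 3157 CPM, 0.558), Gnl3 (194 CPM and 318 CPM, 0.609) and Noc2l (80.0 CPM and 129 CPM, 0.619), the last an assembly factor that also binds histones. Beside Mycn the highest were Polr1b at 1.42 (0.728 to 2.99), the other large polymerase I subunit, and Polr1c at 1.29 (1.01 to 1.64), which polymerases I and III share. Bop1 (0.953) and Ddx21 (0.939) came next. The CKO cells of this type also held more endothelial RNA, at 1531 CPM of the endothelium list in CKO and 775 CPM in WT, with the arterial factor gene Sox17 at 123 CPM and 3.62 CPM, and the part of that difference was not tested.

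Stroma-like cells had lower nucleolar genes too, while the intervals of Myc and Mycn spanned 1. Of the 31 genes 27 were below 1, 5 were past 1.5-fold lower and none higher, against 11.0% and 14.1% of 11163 measured genes. The sum stood at 6013 CPM in CKO and 7097 CPM in WT cells, a ratio of 0.847 (0.836 to 0.859), and the median log2 ratio was -0.27. The lowest were Rrp1b (21.3 CPM in CKO and 53.8 CPM in WT, 0.397, 0.324 to 0.484), Wdr43, a processome protein (46.2 CPM and 77.0 CPM, 0.600), Rrs1 (39.8 CPM and 65.6 CPM, 0.607), Dkc1 (68.0 CPM and 108 CPM, 0.628) and Nop56 (114 CPM and 172 CPM, 0.664). The highest were Rrp12 (1.24), Utp20, the processome scaffold gene (1.20, 0.900 to 1.60), Polr1c (1.08), Ddx21 (1.03) and Rrp9, a protein of the U3 snoRNP (0.991). Fewer CKO stroma-like cells carried a UMI of the division genes Top2a or Mki67, at 68.9% in CKO and 86.6% in WT. The median log2 ratio of the members was -0.21 among cells with such a UMI and -0.21 among cells without one. Among Y-positive stroma-like cells it was -0.48, and among Xist-positive ones -0.14.

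Endothelium-like cells went the other way. Rrp12 and Polr1b had under 20 UMIs there and were not compared. Of the 29 other nucleolar genes, 24 were above 1 and 10 past 1.5-fold higher, none lower, and the median log2 ratio was 0.44 against -0.07 for 7598 measured genes. With Mycn, 11 of 31 measured members were higher, and Myc alone was lower, beside 14.2% and 19.4% of all measured genes. The sum had 7057 CPM in CKO and 4977 CPM in WT cells, a ratio of 1.42 (1.37 to 1.47). The highest besides Mycn were Ddx21 (69.3 CPM in CKO and 27.9 CPM in WT, 2.48, 1.55 to 4.14), Bop1, a PeBoW complex gene (45.0 CPM and 20.3 CPM, 2.22, 1.26 to 4.11), Polr1c (82.1 CPM and 43.1 CPM, 1.90) and Noc2l (60.0 CPM and 31.7 CPM, 1.89). Npm1 had 3139 CPM in CKO and 1959 CPM in WT, a ratio of 1.60 (1.51 to 1.70). The lowest besides Myc were Rrs1 (0.764, 0.534 to 1.10), Rrp1b (0.844), Polr1a (0.938) and Ebna1bp2 (0.949), whose intervals all span 1. The populations in this gate differed in depth and markers: median UMIs were 23687 in CKO and 13162 in WT cells, the endothelium list summed to 5230 CPM in CKO and 7284 CPM in WT, and the progenitor list to 746 CPM and 387 CPM. With a looser gate 3 members were higher in place of 11, and the part of the gate was not tested further.

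Erythroid-like cells had nucleolar genes at near-equal levels. The sum had 7258 CPM in CKO and 7368 CPM in WT cells, a ratio of 0.985 (0.973 to 0.997), and 14 genes were above 1 and 17 below. None of the 33 was past 1.5-fold lower and 2 were higher, beside 7.20% and 24.1% of 8815 measured genes, whose own median log2 ratio was 0.20. Relative to that median the members' median log2 ratio was -0.20 in place of -0.00. The highest were Polr1b (21.1 CPM in CKO and 10.4 CPM in WT, 2.03, 1.502 to 2.77), Mycn, Polr1c (1.47, 1.27 to 1.69), Fbl (1.32) and Utp20 (1.32). The lowest were Rrp1b (0.700, 0.564 to 0.870), Noc2l (0.759), Nhp2 (0.779), Rrs1 (0.781) and Nop10 (0.806). The sexes of this type differed: Xist-positive cells had a sum of 8091 CPM in CKO and 7511 CPM in WT, and Y-positive cells 5685 CPM in CKO and 7239 CPM in WT.

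**Figure D3:**
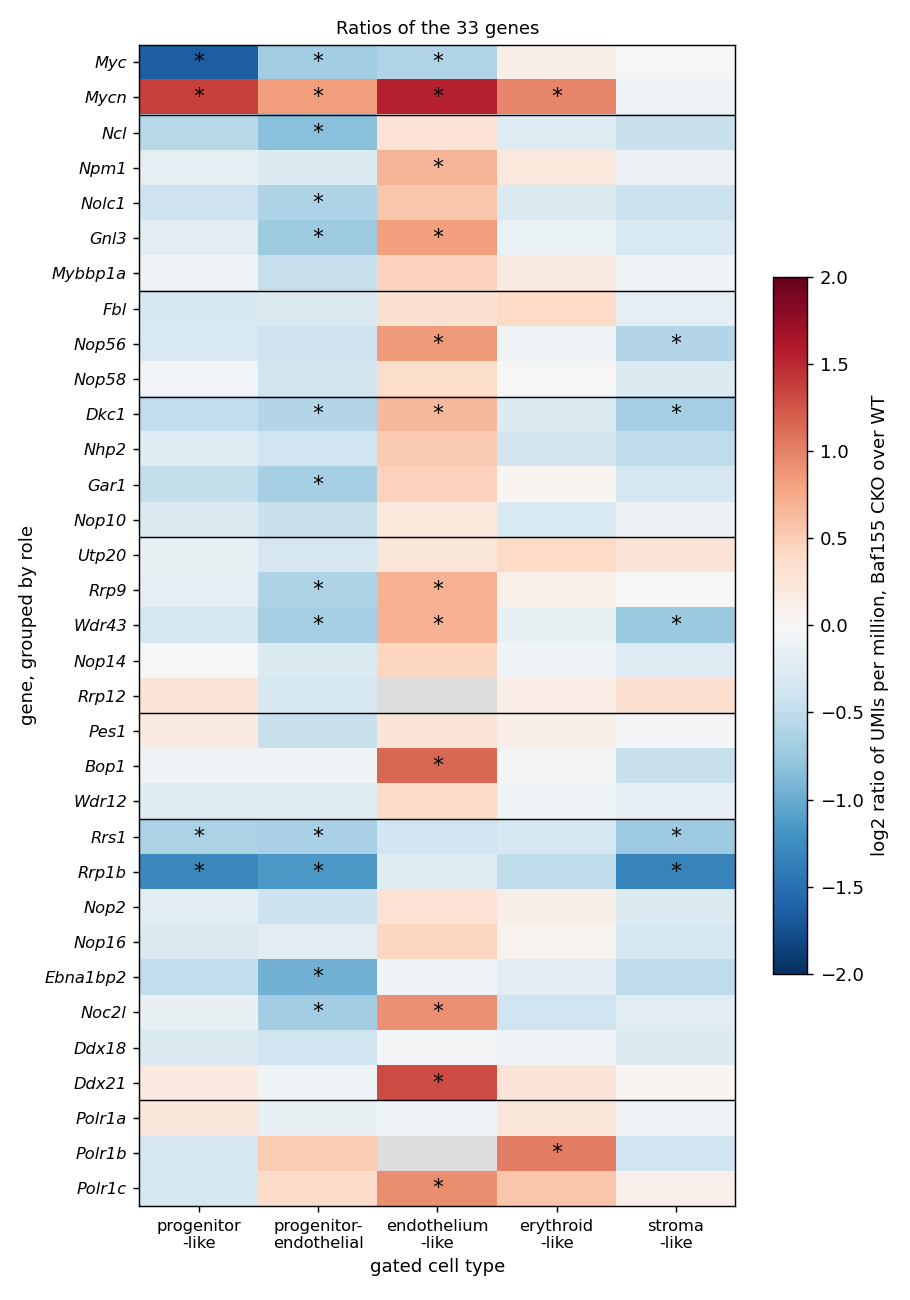
Log2 ratio of CPM, Baf155 CKO over WT, for the 33 genes (rows, grouped by role) in the 5 compared cell types (columns); stars mark genes past 1.5-fold and grey cells have under 20 UMIs. Rrp1b was below 1 in all 5 columns, while most nucleolar genes had ratios below 1 in progenitor-like, progenitor-endothelial and stroma-like cells and above 1 in endothelium-like cells, though most were not past 1.5-fold.

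Across the 5 types, 4 members had a ratio below 1 in each: Rrs1, Rrp1b, Ebna1bp2 and the helicase gene Ddx18, all of the large subunit group. The share of all genes below 1 in every type was not counted, so this count is no result about the members. In endothelium-like cells the intervals of Rrs1, Rrp1b and Ebna1bp2 spanned 1, and the highest Ddx18 ratio was 0.973. Rrp1b and Rrs1 were past 1.5-fold lower in the same 3 types, progenitor-like, progenitor-endothelial and stroma-like. Myc was the only other member past that limit in 3 types. Of the 33, 13 were past 1.5-fold lower in at least 1 type and 12 higher in at least 1, shares near those of all 12130 genes measured in at least 1 type (32.2% and 40.3%). Rrp1b stood lower still among CKO progenitor-like cells with no Smarcc1 UMI, at a log2 ratio of -2.74, against -1.29 in all of them.

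Levels across cell types placed ribosome assembly highest in progenitors in both libraries. Of the 31 nucleolar genes, 27 had their highest CKO level in progenitor-like cells, 3 in progenitor-endothelial and 1 in erythroid-like cells. In WT, 20 were highest in progenitor-like, 10 in progenitor-endothelial and 1 in macrophage-like cells. The intervals of the top pair of types overlapped in WT for every nucleolar gene but Ncl, Nop10 and Polr1c, and in CKO for many. The same order over all genes was not counted, so whether it is particular to these genes was not tested. Globin made up 27.6% of UMIs in CKO and 31.6% in WT erythroid-like cells. With globin UMIs left out of the totals, 24 genes were highest in progenitor-like and 5 in erythroid-like CKO cells (Gnl3, Fbl, Nop56, Nop14 and Polr1b), and 19 in progenitor-like and 3 in erythroid-like WT cells (Nop56, Nop14 and Noc2l). The lowest CKO level was in stroma-like cells for 22 genes, and the lowest WT level in endothelium-like cells for 19. Ncl, for example, ran between 1915 CPM in progenitor-like and 802 CPM in stroma-like CKO cells, and between 3157 CPM in progenitor-endothelial and 877 CPM in endothelium-like WT cells. The summed genes spanned 2.09-fold over CKO types and 3.07-fold over WT types. Megakaryocyte-like cells had a sum of 8414 CPM in CKO and 14145 CPM in the 10 WT cells, whose marker levels differed as given above, and macrophage-like cells 12286 CPM in the 19 CKO cells and 11888 CPM in WT. The macrophage-like sums were thus close, and the Myc levels of these cells were 4.67 CPM in CKO and 74.3 CPM in WT. Their macrophage marker levels also differed, as given above, and how Myc relates to the sums was not tested.

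**Figure D4:**
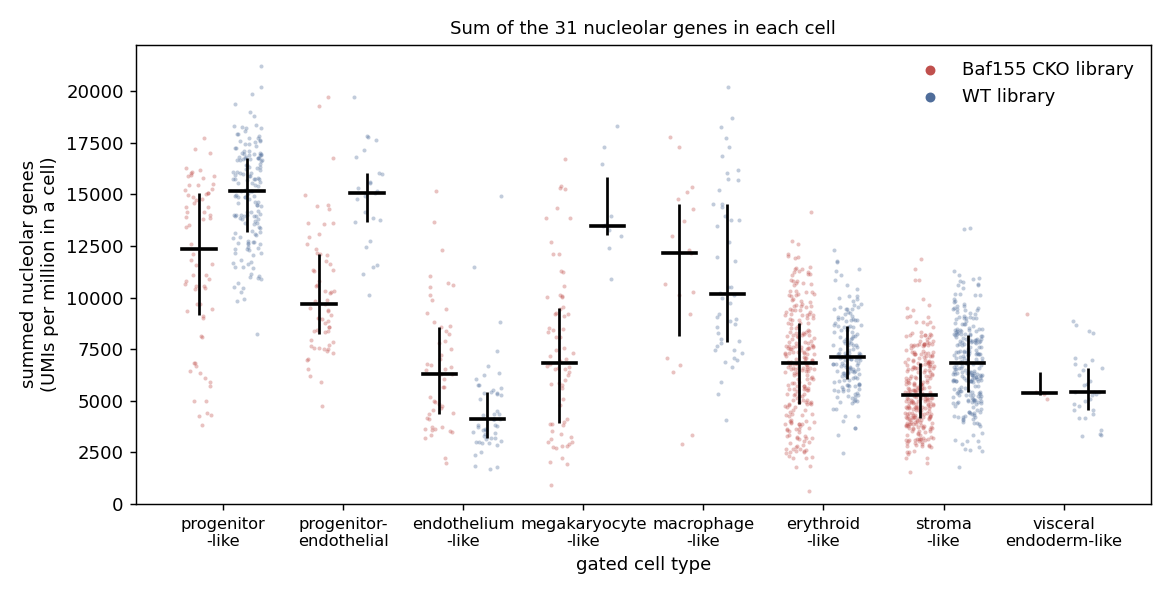
Sum of the 31 nucleolar genes in each cell, in CPM of that cell, by gated type with Baf155 CKO left of WT; horizontal bars are medians and vertical bars quartiles over cells. Medians were 12362 CPM in CKO and 15146 CPM in WT progenitor-like cells, and 6301 CPM in CKO and 4102 CPM in WT endothelium-like cells.

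Cells with a Myc UMI had more nucleolar RNA than cells without one in several gates. In progenitor-like cells the sum was 13401 CPM with and 12113 CPM without a Myc UMI in CKO, and 15754 CPM and 14334 CPM in WT. In CKO megakaryocyte-like cells it was 11009 CPM with and 7434 CPM without. In WT progenitor-endothelial cells it was 15177 CPM with and 15113 CPM without. Cells with a Myc UMI were deeper, at medians of 45949 and 38258 UMIs in CKO progenitor-like cells.

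Other ribosome assembly genes shared the members' direction, and the ribosomal protein genes did not. In progenitor-like cells 32 of 41 other small subunit factors were below 1 (median log2 ratio -0.22), with 2 past 1.5-fold lower and 1 higher, and Emg1, an rRNA methyltransferase gene, at 347 CPM in CKO and 476 CPM in WT (0.729). Of 45 other large subunit factors 32 were below 1 (median -0.23), with 4 lower and none higher, and Lyar, a nucleolar growth regulator, at 342 CPM in CKO and 535 CPM in WT (0.640, 0.595 to 0.687). Of all genes measured in this type, 10.8% were lower and 15.4% higher. Of 16 other polymerase I machinery genes 14 were below 1 (median -0.27), and of 10 other snoRNP assembly factors 8 (median -0.21). Other MYC target genes had a median of -0.18, with 18 of 25 below 1, among them the mitochondrial chaperone gene Hspe1 (0.705) and the nuclear transport gene Ran (0.833). By contrast 56 of 77 cytosolic ribosomal protein genes were above 1, with a median of 0.08, and Rpl32 had 6883 CPM in CKO and 6140 CPM in WT (1.12).

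The same split was seen in progenitor-endothelial cells. There 21 of 43 large subunit factors were past 1.5-fold lower (median -0.58) and 1 higher, beside 15.1% and 17.1% of all measured genes. Of 77 ribosomal protein genes 66 were above 1 (median 0.18). In stroma-like cells small and large subunit factors had medians of -0.27 and -0.22, and ribosomal proteins 0.07. In endothelium-like cells the medians were 0.16 and 0.15, and ribosomal proteins 0.32. Division genes accompanied the members in part. Of 24 G2 and mitosis genes 11 were past 1.5-fold lower in stroma-like cells, beside 11.0% of all measured genes. G2 and mitosis genes had medians of -0.33 in progenitor-like, -0.30 in progenitor-endothelial and -0.46 in stroma-like cells, but -0.13 in endothelium-like cells. S phase genes had -0.17, -0.43 and -0.36 in the first 3 of these, 0.30 in endothelium-like and 0.61 in erythroid-like cells. Whether the cell cycle carries the members' difference was not tested.

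**Figure D5:**
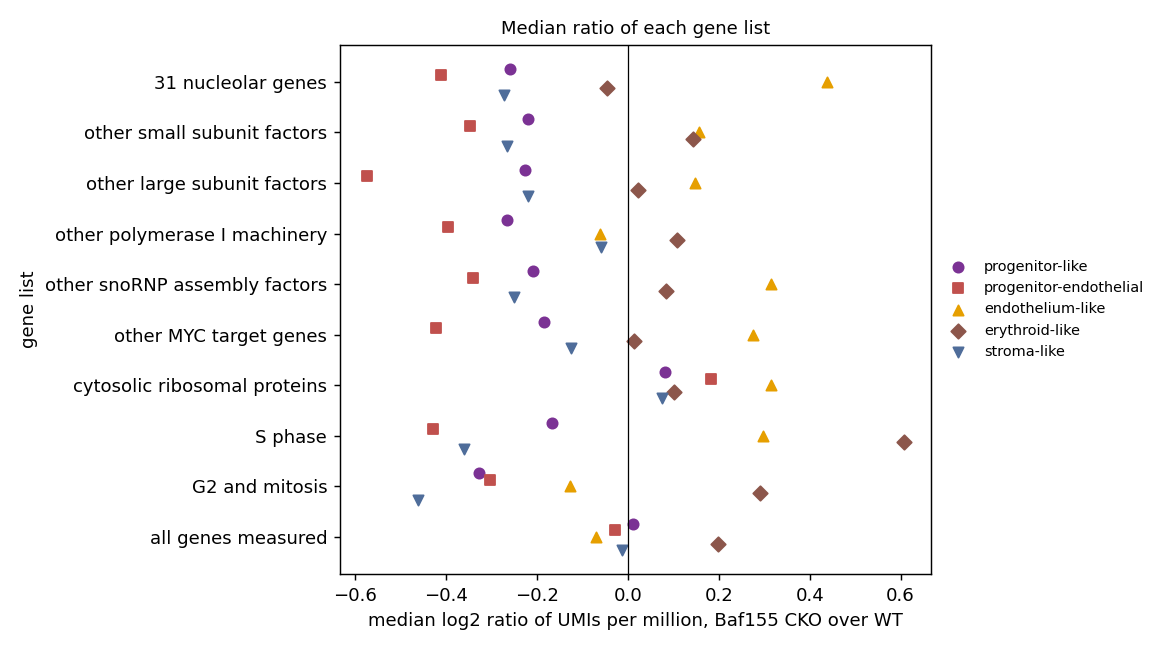
Median log2 ratio of CPM, Baf155 CKO over WT, for the 31 nucleolar genes, the other gene lists and all measured genes (rows) in the 5 compared cell types (symbols). The nucleolar genes had medians of -0.26, -0.41 and -0.27 in progenitor-like, progenitor-endothelial and stroma-like cells, and the ribosomal protein genes were above 0 in all 5 types, except -0.10 in erythroid-like cells once centred on the median of all genes.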

How the data were processed

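The deposited matrices hold whole-number UMI counts per gene and barcode for 2 libraries. The submitters' processing notes name Cell Ranger, GRCm38 and Seurat; no other upstream step is given in the sources used here. Gene positions are from GENCODE on GRCm38. The members, gene lists and gates were chosen with earlier results of these data known. Barcodes under 500 genes or over 10% mitochondrial UMIs were left out, and Scrublet (scanpy 1.11.5, expected rate 1%, seed 0) removed 6 CKO and 3 WT barcodes. It marked 0.694% of CKO and 0.368% of WT barcodes, so few doublets were removed and an alternative kept them. The libraries held 27314411 CKO and 24538853 WT UMIs.

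A marker counted as present in a cell at 2 UMIs or more. Gates were applied in order: erythroid-like (embryonic globins at least 10% of UMIs), visceral endoderm-like (6 markers), stroma-like (6), macrophage-like (5), megakaryocyte-like (6), progenitor-like (4) and endothelium-like (5). Cells passing both of the last gates were progenitor-endothelial. UMIs were summed per gate and library and scaled to CPM. CPM have exact Poisson intervals, ratios conditional binomial intervals and shares Clopper-Pearson intervals, all at 95%. No test was made. All 33 members are reported, with Myc and Mycn in every gate and the 5 highest and 5 lowest ratios per type. The ratio code was tested on simulated data. Scripts ran in Python 3.11.15 with scipy 1.17.1, numpy 2.4.6, pandas 2.3.3 and matplotlib 3.10.9.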

Additional observations from a re-analysis of the deposited data

Results flagged for a closer look

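Ratios of CKO over WT ran in opposite directions in different cell types for 5 nucleolar genes, each past 1.5-fold in both directions with counting intervals clear of 1. The difference between cell types was not tested, because each genotype has 1 library. Gnl3 had 1.76 in endothelium-like and 0.609 in progenitor-endothelial cells. Nop56 had 1.80 in endothelium-like and 0.664 in stroma-like cells. Dkc1 had 1.57 in endothelium-like, 0.666 in progenitor-endothelial and 0.628 in stroma-like cells. Wdr43 had 1.63 in endothelium-like, 0.628 in progenitor-endothelial and 0.600 in stroma-like cells. Noc2l had 1.89 in endothelium-like and 0.619 in progenitor-endothelial cells. In the endothelium-like gate the WT cells were also shallower, at a median of 13162 UMIs, beside 23687 in CKO.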

How the results depend on the processing

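No paired analysis was possible because each genotype has 1 library, so no replicate could be left out either. The median log2 ratio of the members stayed below 0 in progenitor-like (-0.51 to -0.14), progenitor-endothelial (-0.53 to -0.32) and stroma-like cells (-0.48 to -0.14) and above 0 in endothelium-like cells (0.18 to 0.52) under every alternative run. Myc stayed lower in CKO progenitor-like cells (-2.42 to -1.17). The cause of each change below was not tested. The count of members past 1.5-fold is given as lower or higher, with the value in the report in parentheses. The share of all genes past 1.5-fold also moves with the setting. In progenitor-like cells 10.8% of all genes were lower in the main setting and 18.3% for CKO cells with no Smarcc1 UMI. The counts below are not set against that share, so a changed count alone is no result about the members.

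Among CKO cells with no Smarcc1 UMI, progenitor-like cells had 13 lower (3) and a median of -0.51 (-0.26), progenitor-endothelial cells 6 lower (12) and 2 higher (1), endothelium-like cells 0 lower (1) and erythroid-like cells 1 lower (0). Within Xist-positive cells, progenitor-like cells had 6 lower (3) and Ddx21 at -0.026 (0.19), stroma-like cells 1 lower (5) and Fbl at 0.016 (-0.18), and erythroid-like cells a median of 0.19 (-0.00), Gnl3 at 0.14 (-0.13) and Nop56 at 0.080 (-0.10). Within Y-positive cells, progenitor-like cells had 0 higher (1) and Mycn at -0.24 (1.37), stroma-like cells 11 lower (5) and a median of -0.48 (-0.27), and erythroid-like cells 12 lower (0), 1 higher (2), a median of -0.42 (-0.00), Ddx21 at -0.15 (0.25), Mybbp1a at -0.072 (0.18), Npm1 at -0.039 (0.21) and G2 and mitosis genes at -0.019 (0.29).

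The stricter gate added 2 to every marker minimum and the looser gate removed 1, and the globin limit moved too. Gates are applied in order, so cells also pass between types, and a stricter gate need not hold fewer or purer cells. Progenitor-like CKO cells numbered 74 with the stricter and 44 with the looser gate, beside 70. With a looser gate endothelium-like cells had 3 higher (11), 0 lower (1), Ncl at -0.058 (0.29) and Nop10 at -0.057 (0.21), and Mycn had 0.33 (1.54). With a stricter gate they had 7 higher and Ncl at -0.046, erythroid-like cells had 1 higher (2) and 1 lower (0), Myc in WT progenitor-like cells had 51.6 CPM (60.7), Mycn had 71.7 CPM in CKO (60.4) and 30.7 CPM in WT (23.3), and 43.9% of WT cells had a Mycn UMI (34.4). As means over cells, Mycn in progenitor-like cells had 0.94 (1.37). By the same means progenitor-like cells had 8 lower (3), stroma-like 9 (5), erythroid-like 1 (0) and endothelium-like 0 (1), with Myc there at 0.16 (-0.61).

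With globin, mitochondrial and ribosomal protein UMIs left out of the total, progenitor-endothelial cells had 6 lower (12) and 2 higher (1), and endothelium-like cells 0 lower. With globin alone left out, erythroid-like cells had 1 lower (0). Centred on the median of all genes, erythroid-like cells had 2 lower, Mybbp1a at -0.016 (0.18) and ribosomal protein genes at -0.10 (0.10), and endothelium-like cells 0 lower. At 100 UMIs or more, endothelium-like cells had 0 lower, erythroid-like cells 1 higher (2), and MYC network partners in progenitor-like cells a median of -0.37 (0.60). With all deposited barcodes, or with doublets kept, erythroid-like cells had 1 lower and 1 higher. At 5% mitochondrial UMIs or less, endothelium-like cells had 0 lower. Stroma-like cells with no Top2a or Mki67 UMI had 4 higher (0).

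Alternatives chosen after the data were seen gave, in cells of 20000 UMIs or more, 2 higher (1) in progenitor-endothelial cells and 2 lower (5) and 1 higher (0) in stroma-like cells, and, in cells with no Klf1 or Gata1 UMI, 5 lower (3) in progenitor-like cells and Myc at 0.035 (-0.69) in progenitor-endothelial cells. After thinning, Myc shares were 12.9% (32.9) in CKO and 40.1% (63.1) in WT progenitor-like cells and 12.5% (34.4) in CKO progenitor-endothelial cells, and Mycn shares 19.1% (34.4) in WT progenitor-like cells, and 64.1% (89.1) in CKO and 48.0% (84.0) in WT progenitor-endothelial cells. Counting CACGCG beside CACGTG gave 12 of 27 members with a motif (5), or 44.4%. The share by that count was 21.0% over all genes with a window and 24.4% over those of like promoter G+C.

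Splits that left under 20 cells in a library were not run: in progenitor-endothelial cells the stricter gate, either sex and cells without division genes, in endothelium-like cells either sex, cells without division genes and cells of 20000 UMIs or more, in progenitor-like and erythroid-like cells those without division genes, and in erythroid-like cells those without Klf1 or Gata1. Genes under 20 UMIs and types with few cells limit these data, as does the single library per genotype.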
